A study of Nomascus leucogenys with 4 samples.

Results

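The 606 sites described here are the PU.1 peaks with the highest fragment pileup in both of 2 gibbon lymphoblastoid lines. Each placed autosomal peak called in Ricky was paired with the overlapping Vok peak of highest pileup, an overlap of 1 bp being enough, and a pair became a member when both pileups reached 100. The pileup is the caller's value for the number of ChIP fragments that cover the summit, the tallest base of a peak. Like the peak coordinates, summits and fold enrichments it is the authors' own. Backgrounds, ratios, summit distances and summit positions were computed from the authors' values. Of 5294 such pairs, 606 were members (11.4%, exact Clopper-Pearson 95% interval 10.6% to 12.3%). The 2494 pairs with pileups of 26 to 99 in both lists served as the comparison. Pileup chose the members, so pileups and what follows from them are given as descriptions with no test, and the intervals cover counting error only, since neighbouring sites and PCR-amplified fragments are not independent.

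The cells were EBV-transformed lymphocyte lines, and the species was Nomascus leucogenys, a small ape the northern white-cheeked gibbon. Each line comes from 1 individual, named Ricky (replicate 1) or Vok (replicate 2) in the titles, and gave 1 chromatin immunoprecipitation library made with an anti-PU.1 antibody and 1 input library made with no antibody. Both lines carry Epstein-Barr virus, so every library comes from virus-immortalised B lymphocytes grown in culture and not from blood or tissue. The lists hold binding sites and no expression, so the labelled cell type was not checked here. With 1 ChIP library per individual there is no replicate error, and a difference between Ricky and Vok cannot be told apart from a difference between their libraries.

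PU.1, encoded by SPI1, is a transcription factor of the ETS family that is needed for the development of B lymphocytes and of myeloid cells such as macrophages. Its DNA-binding domain recognises purine-rich elements with a GGAA core, and it can open chromatin at enhancers and recruit partner factors there. In ChIP-seq a bound element gives overlapping fragments on both sides of the protein, so the summit of a sharp peak lies close to the bound base and the height of the pileup follows how often the site was recovered.

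After removal of duplicates the ChIP libraries held 39743757 fragments in Ricky and 42905332 in Vok, and the inputs 31218578 in Ricky and 40288483 in Vok. The Ricky list had 11362 peaks on the autosomes and the Vok list 6392. Both lists were called separately against each individual's own input and were not normalised to each other. Taken as a raw count, a pileup of 100 has an exact Poisson 95% interval of 81.4 to 122 fragments. The smaller pileup lay under that upper bound at 155 members (25.6%), while 189 pairs outside the set had a smaller pileup above the lower bound, so membership near the minimum is loose.

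Not every member was a site of high enrichment, which goes against calling the whole set sites of highest occupancy. The caller's fold enrichment sets the pileup against a local background, and the background at each summit was recovered from both values. At most sites it lay at its lowest level, 3.33 fragments in Ricky and 3.87 in Vok. At 41 members it was over 10 times that level in at least 1 list, a division chosen after the data were seen. Their fold enrichment was 1.37 to 5.70 in Ricky (median 2.06) and 1.45 to 3.01 in Vok (median 1.98). The 565 other members had fold enrichments of 17.5 to 285 in Ricky (median 51.5) and 14.2 to 152 in Vok (median 30.2). No member fell between the sets in either list. The division used a background computed from fold enrichment and pileup, and every member pileup was at least 100. The gap in fold enrichment is thus partly set by the division and the rule. Backgrounds of the 41 started at 9.38 times the lowest level in Ricky and 15.8 times in Vok, and those of the other 565 ended at 6.50 times in Ricky and 7.15 times in Vok. The comparison pairs held 4 such sites among 2494. Each result below names the set it covers, and results that the 41 move are given with and without them.

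Almost every strong Vok peak was a member, whereas only a part of the strong Ricky peaks was. Of 1170 Ricky peaks with a pileup of at least 100, 606 became members, 552 had a Vok partner under 100 and 12 had no partner. The 552 partners had a median pileup of 71 and the lowest had 22. Of 638 Vok peaks with a pileup of at least 100, 604 were in members, 22 had a Ricky partner under 100 and 12 had no partner. All 12 of those unpartnered Vok peaks had high background, with pileups of up to 811, against 3 of the 12 in Ricky. The members used 604 Vok peaks because 3 Ricky peaks on chromosome 6 shared 1 wide Vok peak. In 551 of the 606 members the smaller pileup was that of Vok, so the Vok list mostly decided membership.

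The pairs around the minimum show how fine that line is. Just inside, chromosome 8:43634010-43634505 had 100 fragments in Ricky and 109 in Vok. The next 4 members had 121, 123, 135 and 138 fragments in Ricky and 100 in Vok at each. The 5 pairs just outside had 142, 143, 149, 165 and 168 fragments in Ricky and 99 in Vok at each. In Ricky, these 5 excluded pairs were higher than the 5 members named before them. Equal smaller pileups were ordered by the lower geometric mean pileup, which favours low Ricky pileups in both groups. Other members with 100 fragments in Vok had up to 280 in Ricky.

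The member with the highest geometric mean pileup on each of the 25 autosomes gives a view of the strongest sites. These 25 leaders had pileups of 392 to 1235 in Ricky (median 701) and 235 to 1231 in Vok (median 522), and 22 of them were higher in Ricky. Summits lay on the same base at 8 of the 25 and a median of 1 bp apart. The tallest, chromosome 12:44788630-44789620, held 1235 fragments in Ricky and 820 in Vok. Chromosome 24:25412858-25413955 held 922 fragments in Ricky and 604 in Vok, with summits 3 bp apart and no other peak within 50 kb in either list. Chromosome 10:58500726-58501735 held 891 fragments in Ricky and 564 in Vok, and chromosome 4:63286645-63287530 held 701 in Ricky and 469 in Vok with a common summit base. The lowest leaders were chromosome 20:15913358-15914416, with 425 fragments in Ricky and 235 in Vok, and chromosome 23:27655117-27656026, with 392 in Ricky and 276 in Vok.

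Of the leaders, 3 were higher in Vok, and each had a raised background. On chromosome 6, 26154896-26155876 held 636 fragments in Ricky and 1231 in Vok over backgrounds of 249 in Ricky and 582 in Vok, so its fold enrichment was 2.55 in Ricky and 2.11 in Vok. On chromosome 22a, 46183258-46183829 held 421 fragments in Ricky and 1061 in Vok, with fold enrichments of 1.37 in Ricky and 1.60 in Vok. Both belong to the 41. The third, chromosome 7b:53287662-53288421, had 705 fragments in Ricky and 739 in Vok on the same summit base, and its fold enrichment was 31.2 in Ricky and 25.8 in Vok. Its background of 21.6 fragments in Ricky and 27.7 in Vok was the highest among the 565. Without the 41, the leader of chromosome 6 was 49622432-49623363, with 830 fragments in Ricky and 527 in Vok and summits 1 bp apart.

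Pileups were mostly higher in Ricky although its ChIP library held fewer fragments. How the caller's scaling of the libraries enters the pileups is not stated. Over all members the median pileup was 248.5 in Ricky (quartiles 191 and 354.5) and 164 in Vok (quartiles 121 and 238), with maxima of 1235 in Ricky and 1317 in Vok. The ratio of Ricky to Vok had a median of 1.52 (quartiles 1.28 and 1.74). It reached 1.5 at 314 members (51.8%), against 43.2% of all pairs, and was at most the inverse of 1.5 at 38 members (6.27%), against 2.36% of all pairs. Since pileup chose the members, nothing is read from these shares. Among the 565 the median pileup was 244 in Ricky and 160 in Vok, and the ratio had a median of 1.55 (quartiles 1.34 and 1.76). Ricky was higher at 548 of them (97.0%), against 84.5% of all pairs without high background, a share with the same limit. In the comparison pairs the median ratio was 1.38.

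**Figure D1:**
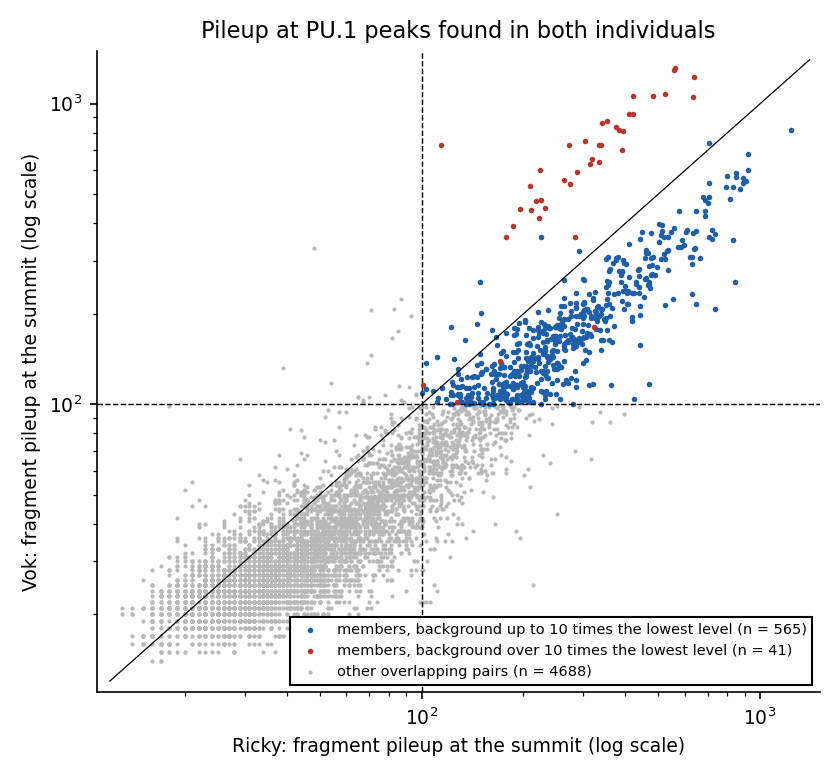
Pileup at the summit in Ricky (horizontal, fragments, log scale) against Vok (vertical, fragments, log scale) for the 5294 overlapping pairs; dashed lines mark the minimum of 100, the solid line equal pileups. Most of the 565 members with low background lie below the line of equality, and 38 of the 41 with high background lie above it.

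The 41 ran the other way in level. Their pileups had a median of 315 in Ricky and 655 in Vok, a median ratio of 0.474, and Ricky was lower at 38 of them. Their backgrounds were likewise lower in Ricky at 38 of 41, with a median ratio of 0.439. Of the 55 members higher in Vok, 38 belonged to the 41 and 31 to a single run on chromosome 6. The part of the local background in these pileups was not tested.

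The lowest ratio of all members was 0.157, at chromosome 6:26172133-26172434, with 114 fragments in Ricky and 726 in Vok and fold enrichments of 3.57 in Ricky and 2.16 in Vok. The widest differences in level among the 565 were at sites higher in Ricky. Chromosome 19:7604758-7605458 held 424 fragments in Ricky and 104 in Vok, a ratio of 4.08. Chromosome 3:100874951-100875774 held 471 in Ricky and 117 in Vok, and chromosome 19:31197213-31198137 held 734 in Ricky and 208 in Vok. At chromosome 22a:121883990-121884889 the pileup was 845 in Ricky and 255 in Vok, and at chromosome 12:35158412-35159262 it was 362 in Ricky and 116 in Vok. Summits at these 5 sites lay 1 to 7 bp apart, so the peaks kept their position where their heights were furthest apart. A ratio of at least 2 was found at 55 of the 565 and a ratio of at most 0.5 at 0. The shares of all pairs at these limits were not computed, so the counts have no base. At the limit of 1.5, 55.4% of the 565 were higher in Ricky, against 43.6% of all pairs without high background. At most the inverse of 1.5 was found at 0.354% of the 565, against 1.56% of those pairs. The median ratio of the 565 was 1.55 and pileup chose them, so nothing is read from these counts.

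In the opposite direction, 17 members of the 565 were higher in Vok, by smaller margins. Without high background, 711 of all 5242 pairs and 308 of 2490 comparison pairs were higher in Vok. Pileup chose the members, so nothing is read from the difference. The lowest ratio was 0.582, at chromosome 11:48200931-48201532, which had 149 fragments in Ricky and 256 in Vok. Chromosome 22a:510266-510889 had 225 in Ricky and 359 in Vok with the same summit base. Chromosome 7b:39624628-39625104 had 122 in Ricky and 181 in Vok. Fold enrichment gave the same direction at all 3, with 22.3 in Ricky and 48.9 in Vok at the first of them, where the background was 5.73 fragments in Ricky and 4.26 in Vok.

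Both individuals ordered the members by height in a similar way, and whether the 41 raised or lowered the agreement depended on the measure. Over the 565, Spearman's rho between the pileups was 0.836 and Pearson's r of log2 pileup 0.871, and over all 606 they were 0.796 and 0.737. The comparison pairs had a rho of 0.593. These are descriptions across sites that share 1 library per individual, and the limits on pileup narrow the range of both sets. By fold enrichment the order was the other way round, with a rho of 0.815 over all 606 and 0.772 over the 565, and 0.541 over the comparison pairs.

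By pileup the 41 filled the top of the Vok ranking. Among all 606 the 10 highest members of Ricky and the 10 highest of Vok had 0 sites in common, and all 10 of Vok had high background. Among the 565, 7 of the 10 highest were in common, as were 39 of the 50 highest and 77 of the 100 highest. With the 41 kept in, 22 of 50 and 64 of 100 were in common. Ranked by fold enrichment, 7 of 10, 33 of 50 and 76 of 100 were in common, both with and without the 41. When the 565 were divided into 4 groups by pileup in each list, 121 of the 139 sites in the highest Ricky group (87.1%) were also in the highest Vok group. The shares in the other 3 groups were 62.8%, 47.1% and 60.8%, from lowest to highest.

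Summits agreed closely. The summits of a member lay a median of 2 bp apart (quartiles 1 and 4), against 7 bp (quartiles 3 and 15) in the comparison pairs. Both summits fell on the same base at 130 members (21.5%, interval 18.2% to 24.9%), against 4.49% (3.71% to 5.38%) of comparison pairs. They lay within 10 bp at 566 members (93.4%, 91.1% to 95.2%), against 62.3% (60.4% to 64.3%). Without the 41, the median was 1 bp, the same base was shared at 128 of 565 (22.7%, 19.3% to 26.3%), and 545 (96.5%, 94.6% to 97.8%) lay within 10 bp. The rule used no summit position, but with 1 library per individual these shares carry intervals and no test.

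The distance became smaller from class to class up to a pileup of 150, with no break at 100. Grouped by the smaller pileup and without high background, the median distance was 18 bp at 12 to 25 fragments, 8 bp at 26 to 49, 4 bp at 50 to 99, 2 bp at 100 to 149 and 1 bp in each class from 150 upwards. The share on the same base was 0.985%, 4.12%, 7.86%, 13.6%, 23.9%, 34.7% and 39.1% in those classes, with 23 pairs in the highest. More fragments at a summit also fix its position more finely, and the part of depth in the agreement was not tested. Several of the tallest sites shared their summit base, among them chromosome 5:46875621-46876535, with 890 fragments in Ricky and 545 in Vok, and chromosome 12:12559138-12560038, with 815 in Ricky and 483 in Vok. Chromosome 14:85472626-85473566 did so with 834 fragments in Ricky and 351 in Vok.

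**Figure D2:**
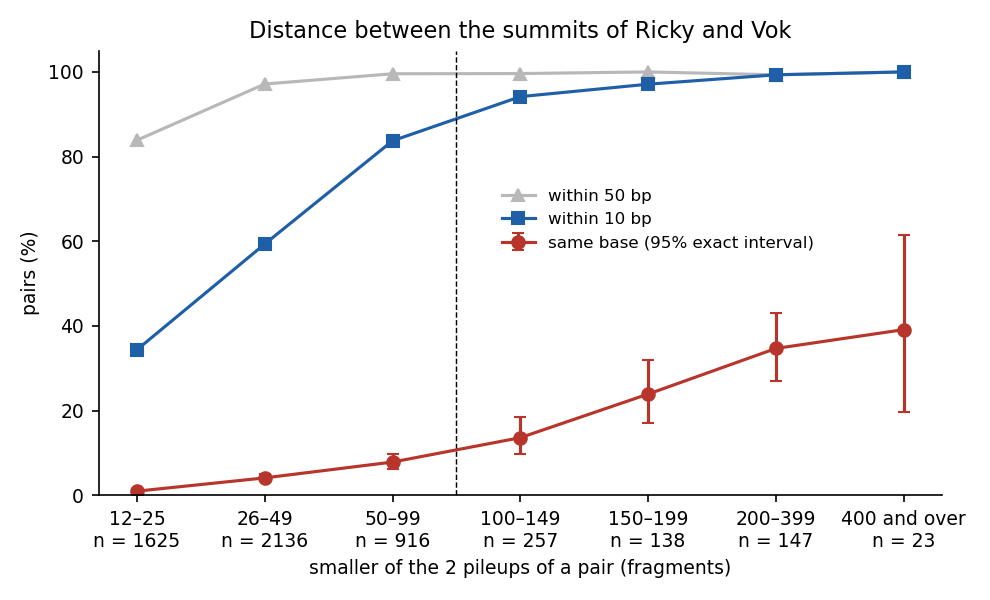
Share of pairs (vertical, %) whose summits in Ricky and Vok lay on the same base, within 10 bp or within 50 bp, by the smaller of the pileups of a pair (horizontal, fragments), without high-background pairs; bars are exact 95% intervals and the dashed line is the minimum of 100. The share on the same base goes from 0.985% in the lowest class to 39.1% in the highest.

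Few members had summits far apart. The largest distance was 1110 bp, at the member of lowest ratio, chromosome 6:26172133-26172434, whose Vok peak of 1747 bp was shared by 3 members. A neighbour on that Vok peak had summits 496 bp apart, and chromosome 6:26187215-26188567 had them 429 bp apart. Of the 14 members with summits over 50 bp apart, 12 belonged to the 41, and the others were single sites on chromosomes 12 and 8. Chromosome 12:48387390-48388878 had summits 644 bp apart, with 737 fragments in Ricky and 368 in Vok, inside peaks of 1489 bp in Ricky and 1327 bp in Vok. Its summit lay at 0.711 of the peak length in Ricky and at 0.257 in Vok, so different ends of 1 wide region were tallest. Chromosome 8:76380739-76381538 had summits 151 bp apart, with 162 fragments in Ricky and 111 in Vok. Among the 41 the median distance was 10 bp, 2 shared a base and 21 (51.2%, 35.1% to 67.1%) lay within 10 bp.

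Members were wider than comparison pairs, as the pileup rule would already favour. The median width was 710 bp in Ricky and 619.5 bp in Vok, and without the 41 it was 715 bp in Ricky (quartiles 645 and 806) and 623 bp in Vok (quartiles 560 and 695). Comparison pairs had 421 bp in Ricky (quartiles 351 and 492) and 333 bp in Vok (quartiles 279 and 394). The 565 spanned 406 to 1560 bp in Ricky and 378 to 1327 bp in Vok. Width followed pileup across the 565, with a rho of 0.706 in Ricky and 0.685 in Vok, and across all 606 with 0.645 in Ricky and 0.522 in Vok, both measures being taken from the same fragment track. The Ricky peak was the wider one at 484 of 606 and at 471 of 565. It held the whole Vok peak at 352 of 606 (58.1%) and 345 of 565 (61.1%), against 58.5% of the comparison pairs. The median ratio of widths, Ricky over Vok, was 1.13 over all members, 1.14 among the 565 and 1.24 in the comparison pairs.

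The 41 held both extremes of width in the Ricky list. The narrowest 5 members, 184 to 222 bp, all belonged to them. So did the widest, chromosome 6:26145376-26147656, of 2281 bp in Ricky and 2202 bp in Vok, with 560 fragments in Ricky and 1317 in Vok. Per the file headers the fragment size was 180 bp in Ricky and 184 bp in Vok, the same as the narrowest peak of any pair in each list. The narrowest of the 565, chromosome 13:91096337-91096742, was 406 bp wide in Ricky and 482 bp in Vok and held 111 fragments in Ricky and 102 in Vok. The widest of the 565, chromosome 19:73777412-73778971, was 1560 bp in Ricky and 533 bp in Vok, with 183 fragments in Ricky and 115 in Vok and the same summit base. It overlapped 2 Vok peaks, as did 3 other members. One of these, chromosome 13:1326178-1327521, was 1344 bp wide with 645 fragments in Ricky, and its stronger Vok partner was 674 bp wide with 216.

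The summit sat near the centre of the peak. On a scale of 0 at the start and 1 at the end, its median position over all members was 0.499 in Ricky and 0.495 in Vok. Without the 41 it was 0.499 in Ricky (quartiles 0.466 and 0.536) and 0.494 in Vok (quartiles 0.459 and 0.530). Over all members it lay in the central of 3 equal segments at 567 in Ricky (93.6%, 91.3% to 95.4%) and at 575 in Vok (94.9%, 92.8% to 96.5%). Without the 41 it did so at 549 of the 565 in Ricky (97.2%, 95.4% to 98.4%) and at 554 in Vok (98.1%, 96.5% to 99.02%). Comparison pairs gave 92.9% in Ricky (91.9% to 93.9%) and 92.2% in Vok (91.1% to 93.2%). The intervals of all members and of the comparison pairs overlapped, whereas those of the 565 lay above those of the comparison pairs in both lists. Among the 565, off-centre summits were found at 16 sites in Ricky and 11 in Vok, and at 3 in both. In base pairs the median offset from the centre was 26.5 in Ricky and 24.5 in Vok for all members, 24.5 in Ricky and 23 in Vok for the 565, and 21 in Ricky and 19 in Vok for the narrower comparison pairs. The 41 had the summit in the central segment at 18 sites in Ricky (43.9%) and 21 in Vok (51.2%).

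Positions inside the peak agreed less between the lists than the summits did. Across the 565 the rho between the positions in Ricky and Vok was 0.239, across all 606 it was 0.301, and across the comparison pairs 0.140, although the summits themselves were nearly the same bases. The edges lay further apart: among the 565 the Vok peak began a median of 50 bp inside the Ricky start and ended a median of 40 bp inside the Ricky end. At chromosome 1a:59943536-59944936, a peak of 1401 bp in Ricky and 1219 bp in Vok, the summit lay off-centre in Vok only by this division, at 0.365 in Ricky and 0.293 in Vok, with the summits 1 bp apart. At chromosome 23:5910525-5911886 it was off-centre in both, at 0.262 in Ricky and 0.222 in Vok, with 313 fragments in Ricky and 149 in Vok.

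**Figure D3:**
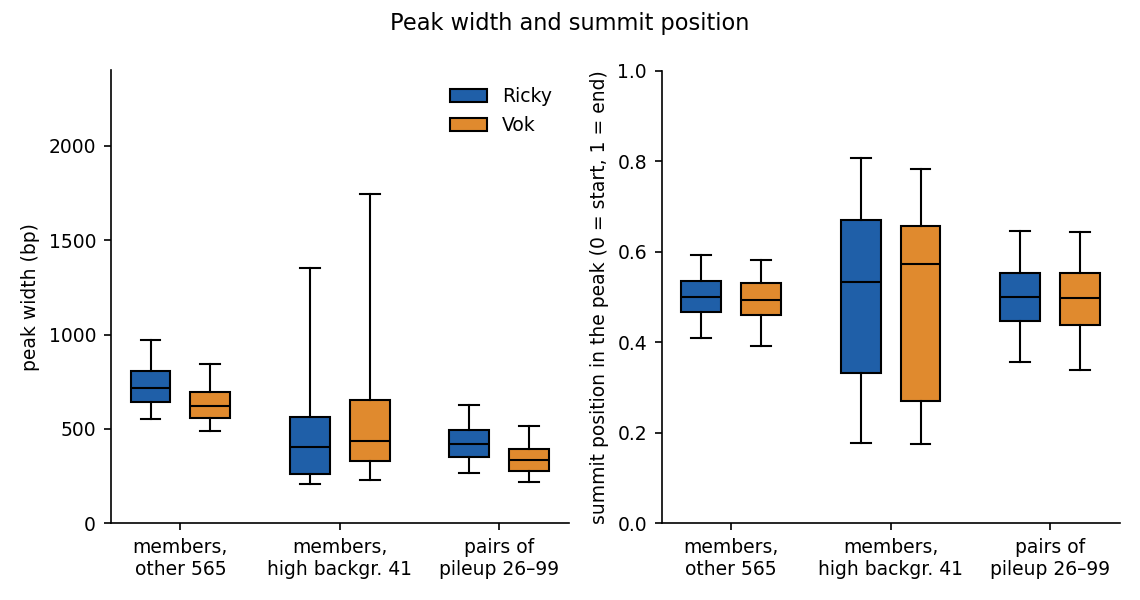
Peak width (left, bp) and summit position inside the peak (right, 0 at the start and 1 at the end) in Ricky and Vok for the 565 members with low background, the 41 with high background and the 2494 comparison pairs; boxes show quartiles and median, whiskers the 5th and 95th percentiles. The 565 have medians of 715 bp in Ricky and 623 bp in Vok, and the 41 have the widest spread of positions.

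Members had other peaks nearby somewhat more often than the comparison pairs. A neighbour was any other peak of the same list within 50 kb. In Ricky, 409 members had one (67.5%, 63.6% to 71.2%) and in Vok 328 (54.1%, 50.1% to 58.1%). Without the 41 the shares were 65.3% in Ricky (61.2% to 69.2%) and 51.2% in Vok (46.9% to 55.3%). Comparison pairs gave 58.4% in Ricky (56.4% to 60.3%) and 44.7% in Vok (42.7% to 46.7%). With pairs of 50 to 99 fragments in both lists as the comparison, the shares were 58.4% in Ricky and 48.0% in Vok. The difference in Vok was then smaller, and 48.0% lies within the interval of the 565. The nearest peak was a median of 21.6 kb away in Ricky and 39.7 kb in Vok over all members, and 25.1 kb in Ricky and 46.6 kb in Vok over the 565, against 35.3 kb in Ricky and 62.1 kb in Vok for the comparison pairs.

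The share with a neighbour rose from class to class up to 100 to 149 fragments and then changed little. Only the highest class in Vok, of 23 pairs, departed from this. By class of the smaller pileup and without high background, the share with a neighbour in Ricky was 56.0% at 12 to 25 fragments, 58.5% at 26 to 49, 61.4% at 50 to 99, 65.4% at 100 to 149, 65.9% at 150 to 199, 64.6% at 200 to 399 and 65.2% at 400 or more. In Vok the shares in the same classes were 40.0%, 43.9%, 46.6%, 50.6%, 50.7%, 51.0% and 60.9%. A neighbour that was itself found in both individuals stood within 50 kb of 310 of the 606 (51.2%, 47.1% to 55.2%) and of 271 of the 565 (48.0%, 43.8% to 52.2%), against 41.1% of comparison pairs (39.2% to 43.1% in Ricky). Another member stood there at 16.7% of the 606 (13.8% to 19.9%) and at 64 of the 565 (11.3%, 8.83% to 14.2%), against 195 comparison pairs (7.82%, 6.80% to 8.94%). Neighbours of the 565 had a lower pileup than the member in 95.6% of cases in Ricky and 93.0% in Vok, which the minimum of 100 partly sets, and over all members in 76.5% in Ricky and 70.1% in Vok. No peak lay within 50 kb in either list at 186 of the 565 (32.9%).

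Most members stood apart from each other. With 50 kb as the limit, 505 of 606 had no other member nearby, 29 groups held 2 members and 5 runs held 3 or more. Of the 5 runs, 4 held 3 members each, and none of these belonged to the 41. On chromosome 12 the run of 65.4 kb from 21005701 to 21071117 had pileups of 441, 155 and 571 in Ricky and 213, 131 and 333 in Vok. On chromosome 17 the run of 85.4 kb from 37578137 to 37663574 had 121, 875 and 243 in Ricky and 100, 522 and 145 in Vok. Its middle site leads chromosome 17 and its first site lies just above the minimum.

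Chromosome 3 held the other pair of such runs. The members between 37692539 and 37745945 had 280, 163 and 129 fragments in Ricky and 100, 113 and 102 in Vok. The tallest of them in Ricky was the lowest in Vok. All 3 Vok pileups lie within the Poisson interval of a pileup of 100 (81.4 to 122), so their order is loose. Those between 153963025 and 153977999, a run of 15.0 kb, had 182, 225 and 525 in Ricky and 124, 129 and 304 in Vok. In this run and in those on chromosomes 12 and 17 the order of the 3 sites by pileup was the same in both individuals, although 124 and 129 in Vok are close.

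The remaining run, on chromosome 6 from 26110586 to 26218014, held 31 members in 107 kb, and all 31 belonged to the 41. Pileups there were 114 to 636 in Ricky (median 318) and 361 to 1317 in Vok (median 726), higher in Vok at 31 of 31. Backgrounds were 31.2 to 309 fragments in Ricky (median 155) and 158 to 659 in Vok (median 335), and fold enrichments 1.46 to 5.70 in Ricky (median 2.26) and 1.54 to 3.01 in Vok (median 2.05). The ratio of Ricky to Vok had a median of 0.466 for pileup and 0.434 for background. Summits still lay a median of 8 bp apart, 19 of 31 within 10 bp and 2 on the same base. In all, the Ricky list had 36 peaks in this stretch and the Vok list 34, covering 18.1% of it in Ricky and 18.3% in Vok. Per the file headers the background is a local one with the input as control. Its part in these pileups was not tested.

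**Figure D4:**
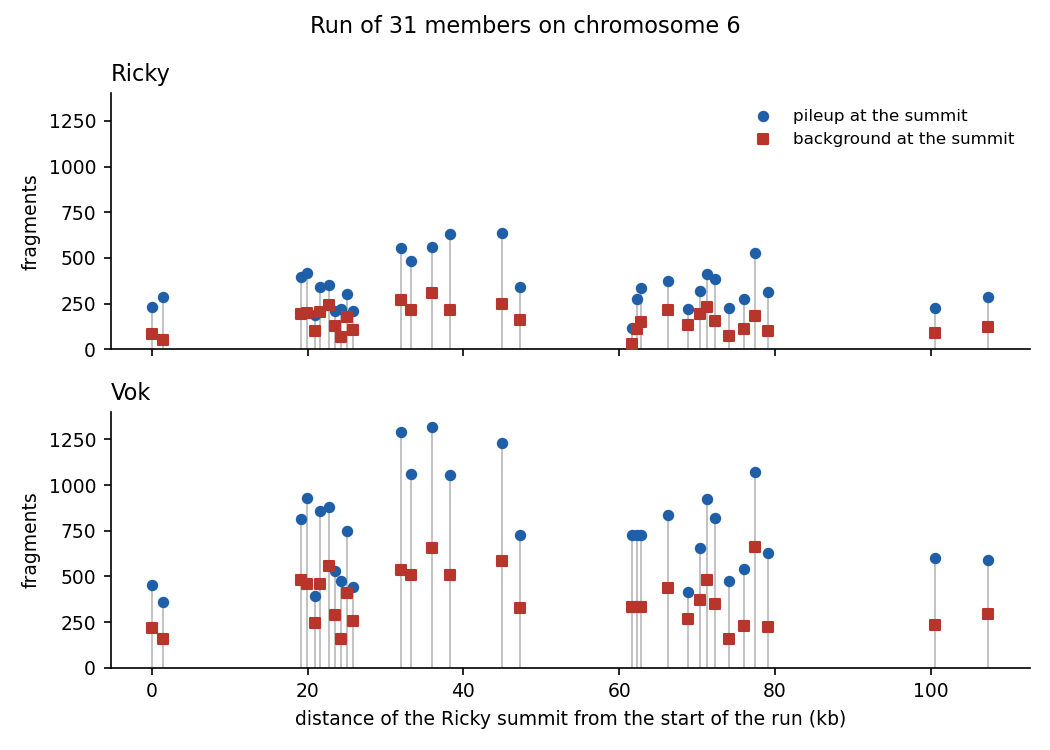
Pileup (circles, fragments) and background (squares, fragments) at the summits of the 31 members of the run on chromosome 6, in Ricky above and Vok below, by distance of the Ricky summit from the start of the run (kb). Backgrounds reach 309 fragments in Ricky and 659 in Vok, and pileups are higher in Vok at 31 of 31 members.

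Of the 10 high-background members outside that run, 2 lay nearby on chromosome 6 between 26020501 and 26021396 and 8 on 6 other chromosomes. Chromosome 24:24985124-24985439 held 334 fragments in Ricky and 640 in Vok over backgrounds of 149 in Ricky and 365 in Vok. Chromosome 10:52221823-52222272 was 1 of only 3 of the 41 that were higher in Ricky, with 323 fragments in Ricky and 181 in Vok. The remaining ones of those 3 were neighbours on chromosome 5, at 142564803-142565231 and 142565450-142565678.

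Members were found on all 25 autosomes, from 11 on chromosome 20 to 61 on chromosome 6. Chromosome 6 owed its place to the 41, of which it held 33. Its members made up 22.2% of its pairs (17.4% to 27.6%), and 11.7% (7.89% to 16.4%) with high-background pairs left out. Without these, chromosome 2 had the most members, 41, and the share of pairs that were members was 10.8% over all autosomes. The intervals of 23 of 25 chromosomes held that value. Chromosome 25 stood above it with 16 of 69 pairs (23.2%, 13.9% to 34.9%), as did chromosome 24 with 14 of 71 (19.7%, 11.2% to 30.9%). The lowest share was that of chromosome 18, 14 of 195 (7.18%, 3.98% to 11.8%). The leaders of chromosomes 25 and 24 were among the taller sites, the chromosome 25 leader with 849 fragments in Ricky and 586 in Vok.

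**Figure D5:**
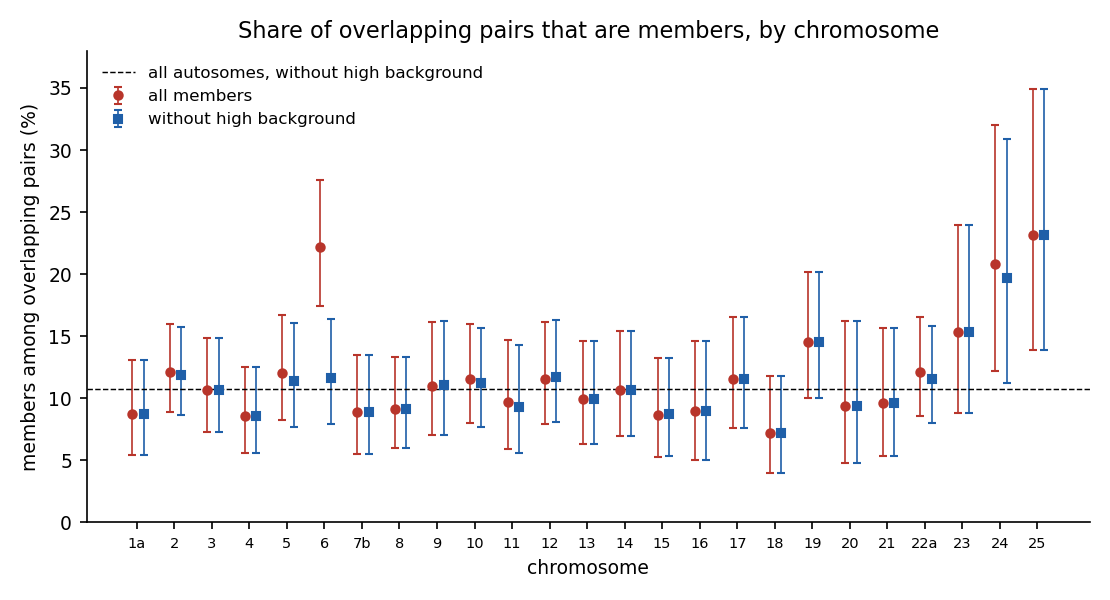
Share of overlapping pairs that were members (vertical, %) on each autosome (horizontal), for all members and without high-background pairs, with exact 95% intervals; the dashed line is the share over all autosomes without high background, 10.8%. Chromosome 6 is at 22.2% with all members and at 11.7% without high background.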

How the data were processed

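PU.1 ChIP and input libraries of 2 individuals were grouped by title, and no library was left out. MACS 2.1.1.20160309 called the peaks on paired fragments, per the file headers. Each ChIP library had its own input as control, replicates were not pooled, the q cutoff was 0.05, the effective genome size 2.7 Gb, and 1 duplicate was kept at most. The headers name bwa and a mapping quality filter of 30, whereas the submitters' processing notes list Bowtie2. The sources used here do not name the genome build. Per the file headers the larger dataset was scaled towards the smaller; the deposited pileups are nevertheless whole numbers in 100% of autosomal peaks, and how the scaling enters is not stated.

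The deposited peak lists give, per peak, the pileup (coverage signal at the summit), the fold enrichment ratio over background and −log10 of p and of q. From these the background was computed as (pileup + 1)/fold enrichment − 1. Coordinates are those of the lists, counted from 1. Shares carry exact Clopper-Pearson 95% intervals. The tools were SciPy 1.17.1, NumPy 2.4.6, matplotlib 3.10.9, pandas 2.3.3 and Python 3.11.15. Pairing, member count, summit distance, neighbour share and lowest background were tested on simulated lists. Those lists held no peak with several partners or high background. Ratios, ranks, runs and summit positions were not tested in this way.

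The members, lists and measures were chosen with earlier results of these data known. Sites were to be named by rule, some of them only in ranges: the leader of each autosome, the 5 just inside and outside the minimum, the 5 widest and narrowest in Ricky, the 5 with the largest summit distance, the highest and lowest ratio, and every run of 3 or more members. Many of the sites named were chosen after their values were seen: the same lists within the 565, the tallest sites with a common summit base, members that overlap 2 Vok peaks, the 7b site and the high-background sites. Alternatives were other pileup minimums, overlap rules, windows and rankings, and leaving out high background. Nearest genes, sequences and motifs were not analysed here, and the deposited repeat family table was not used here.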

Additional observations from a re-analysis of the deposited data

How the results depend on the processing

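No paired analysis was possible because, with 1 library per individual, the results come from no test. Summit distance and rank agreement need both lists and have no value with 1 of them left out. A minimum pileup of 150 gave 345 members and a rho of 0.660 by pileup, with high-background pairs kept in. By smaller pileup these made up 2.82% at 150 to 199, 14.0% at 200 to 399 and 28.1% at 400 or more. A higher minimum also narrows the range of pileups, and rho without those pairs was not computed at 150. Taking 1 list alone gave 638 to 1170 peaks of at least 100, a share with a neighbour of 54.9% to 66.0%, a width of 617.5 to 640.5 bp and a summit position of 0.494 to 0.499; with both, as means of the lists, these were 60.8%, 664.75 bp and 0.497. Over all members, the rank correlation between the lists was 0.859 by −log10 q, against 0.796 by pileup. Without backgrounds over 10 times the lowest level it was 0.831 by −log10 q and 0.836 by pileup. Without those over 2 times it was 0.830 by −log10 q and 0.837 by pileup. The share with a neighbour was 46.9% within 25 kb and 76.3% within 100 kb. With comparison pairs of 50 to 99 fragments their median width was 459 bp in place of 377, their summit distance 4 bp in place of 7 and their rho 0.284 in place of 0.593. Median width of the members moved by less than the SD between the lists under its 11 alternatives. Their median summit distance stayed within its interval of 1 to 2 bp under its 9 alternatives, at 1 bp in place of 2 with a minimum of 150, a scaled Vok minimum, summits within 100 bp or high background left out. Counting error at the minimum, 81.4 to 122 fragments, limits which pairs near 100 are members.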

Other observations

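Pairs with pileups of at least 100 in both lists were also present outside the autosomes. Chromosome X held 5, none with high background, with 209 to 521 fragments in Ricky and 115 to 267 in Vok. Ricky was higher at all 5, with ratios of Ricky to Vok of 1.65 to 2.08 (median 2) and summits a median of 1 bp apart. Unplaced sequences held 13, of which 7 had high background. The 6 others were higher in Ricky at 6 of 6, with ratios of 1.08 to 2.1 (median 1.70).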
